A study of Mus musculus with 6 samples.

Results

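The thick filament of the sarcomere is a bundle of myosin held in register by accessory proteins, and 9 genes for such proteins were followed here. They are Mybpc1, Mybpc2, Mybph, Myom1, Myom2, Myom3, Ttn, Obsl1 and Smyd1. They were taken by symbol from a deposited table of 25344 genes, in which each symbol had 1 row. Gastrocnemius RNA was sequenced from wild-type mice (WT, 3 libraries) and from transgenic mice that overexpress NRTN in muscle (HSA-NRTN, 3 libraries), with the WT mice as littermates. The human alpha-skeletal actin promoter drives the transgene, so neurturin, a secreted ligand of the GDNF family, is made by muscle fibres. The series asks how neurturin from muscle relates to fibre metabolism and motor neuron type. The labels give no age, sex or treatment, and do not say whether a library is 1 animal or a pool, or whether the transgenic mice come from 1 founder line. The p-values therefore measure the spread between these libraries.

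Myosin-binding protein C wraps the thick filament in regular stripes and tunes the interaction of myosin heads with actin; skeletal muscle has a slow isoform, from Mybpc1, and a fast one, from Mybpc2. The myomesins cross-link thick filaments at the M-band, the midline of the sarcomere, where titin molecules from opposite sides also meet. Titin itself spans from the Z-disc to the M-band and acts as a spring and ruler. Fast and slow fibres differ in which members of these families they use.

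Levels are in FPKM, that is, reads divided by gene length and by the library's total, so genes of different length can be compared. Reads counted in genes came to between 27418154 and 50291845 per library. Nrtn, which encodes neurturin, lay between 1.70 and 4.33 FPKM in WT and between 169 and 201 FPKM in HSA-NRTN, so each library matched its label. Genes were called with limma on log2(FPKM + 1), two-sided, at a Benjamini-Hochberg adjusted p under 0.05 over 10755 genes whose mean level reached 1 FPKM, which all 9 genes did. Size factors, recovered from the authors' table, correct for library composition as well. The tested genes had a median log2 change of 0.18 as FPKM and of -0.06 after size-factor scaling, so both scalings are given where they differ.

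Levels of several cell type markers moved with the groups. The summed FPKM of 5 genes expressed in muscle fibres (Acta1, Ckm, Des, Mb and Pvalb) ranged from 29560 to 36275 over the WT libraries. Over the HSA-NRTN libraries it ranged from 20053 to 23360. Of these 5 genes 1 was called higher and 3 lower (1 and 4 after size-factor scaling). Fibre types were not separated, so this sum is not a measure of fibre content. The summed FPKM of 5 macrophage markers ranged from 14.6 to 17.9 in WT and from 55.6 to 64.1 in HSA-NRTN. All 5 were called higher and none of them was at 0. Markers of endothelium (5 of 5), fibroblasts (5 of 5), Schwann cells (4 of 4), smooth muscle (3 of 3) and adipocytes (3 of 4) were called higher as well. The 2 satellite cell markers together came to 0.834 to 1.10 FPKM per library. Both lay below the mean of 1 FPKM set for testing, so they were not tested. After size-factor scaling all 5 macrophage markers were still called higher, against 4 of 5 for fibroblasts, 2 of 5 for endothelium and 2 of 4 for Schwann cells. For smooth muscle it was 1 of 3, and for adipocytes 1 of 4, where 1 was also called lower. Over all tested genes 41.6% were called higher and 11.7% lower with FPKM, and 20.8% and 30.1% with the size factors. The summed FPKM of the adipocyte markers overlapped between the groups (22.7 to 38.0 in WT, 34.0 to 60.9 in HSA-NRTN). The part of these marker shifts in the results below was not tested, and in whole muscle fewer cells of a type and less RNA per cell cannot be told apart.

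Of the 9 genes, 2 rose (Mybpc1 and Myom3), 3 fell (Mybph, Mybpc2 and Myom2) and 4 were not called (Ttn, Myom1, Obsl1 and Smyd1). Over all tested genes 41.6% were called higher and 11.7% lower. The 2 of 9 called higher are a smaller share than that, and the 3 of 9 called lower a larger one. Neither difference was tested, and the 9 genes were chosen with earlier results known. With the size factors 1 gene was higher (Mybpc1) and 4 were lower (Mybph, Mybpc2, Myom2 and Smyd1), against a background of 20.8% and 30.1%. In either direction 5 of the 9 were called under each scaling, against 53.3% of all tested genes with FPKM and 50.8% with the size factors. The authors' deposited table called 1 higher (Mybpc1) and 5 lower (Mybph, Mybpc2, Myom2, Obsl1 and Smyd1), against 18.0% higher, 17.8% lower and 35.8% in either direction of its 18953 genes with an adjusted p. As a group the 9 genes had a median of -0.01 in log2 as FPKM and of -0.31 after size-factor scaling. The levels of the groups did not overlap for the same 5 genes called with FPKM, 2 higher and 3 lower, against 47.0% and 15.2% of all tested genes (62.1% in either direction). Scaled by size factors they did not overlap for 7, 2 higher and 5 lower, against 24.3% and 35.6% (59.9%).

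**Figure D1:**
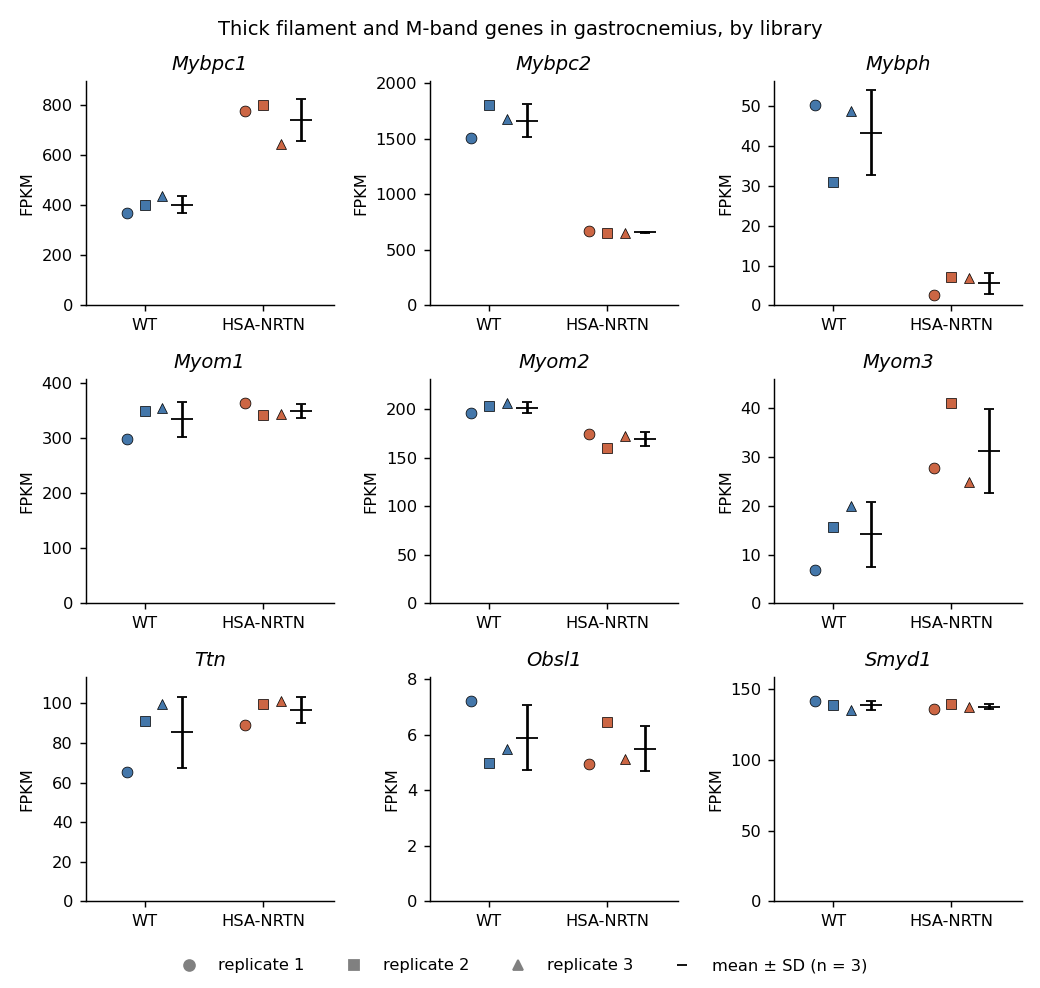
FPKM of each of the 9 genes (linear y axis from 0) in the 3 WT and 3 HSA-NRTN libraries, with the replicate shown by the symbol and the mean ± SD (n = 3) beside each group. Mybpc2 fell from 1509 to 1803 FPKM in WT to 654 to 666 in HSA-NRTN, while Smyd1 stayed between 136 and 142 in all 6 libraries.

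Levels spanned a wide range. In WT the order by mean FPKM was Mybpc2, Mybpc1, Myom1, Myom2, Smyd1, Ttn, Mybph, Myom3 and Obsl1, and the libraries of neighbours in this order did not overlap except those of Myom3 and Obsl1. In HSA-NRTN, Mybpc1 (741 ± 84.8 FPKM) stood beside Mybpc2 (658 ± 6.46) with overlapping libraries, and Mybph had moved down to the level of Obsl1, again with overlap (SD, n = 3). Among all 25344 genes of the table, Mybpc2 went from rank 26 in WT to rank 45 in HSA-NRTN, Mybpc1 from rank 59 to rank 39, and Mybph from rank 713 to rank 5295.

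The genes of the myosin-binding protein family went in opposite directions. Mybpc2 (ENSMUSG00000038670; GRCm38 chromosome 7, 44501699 to 44524656, minus strand), the fast isoform, reached 1509, 1803 and 1675 FPKM in the WT libraries and 666, 655 and 654 FPKM in the HSA-NRTN libraries. Every HSA-NRTN library lay below every WT library, and the HSA-NRTN libraries lay close together. The mean fell from 1662 ± 148 to 658 ± 6.46 FPKM (SD, n = 3), 2.52-fold. In limma the log2 difference was -1.33 with an SE of 0.09 (adjusted p = 1.29e-05). Scaled by size factors it was -1.63 (limma, adjusted p = 1.89e-05).

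Mybpc1 (ENSMUSG00000020061; chromosome 10, 88518279 to 88605152, minus strand), the slow isoform, which fast fibres also express, reached 369, 402 and 439 FPKM in the WT libraries. The HSA-NRTN libraries gave 778, 801 and 644 FPKM. The groups did not overlap. On average Mybpc1 rose from 403 ± 34.9 to 741 ± 84.8 FPKM (SD, n = 3), 1.84-fold. In limma the log2 difference was 0.87 with an SE of 0.11 (adjusted p = 0.000347), and 0.57 after size-factor scaling (adjusted p = 0.00519). The summed FPKM of 10 slow-fibre markers overlapped between the groups, ranging from 185 to 496 over the WT libraries and from 327 to 436 over the others. Of these 10 markers 1 was called higher and 1 lower with FPKM, against 41.6% and 11.7% of all tested genes. After size-factor scaling 0 were called higher and 3 lower, against 20.8% and 30.1%.

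Mybph (ENSMUSG00000042451; chromosome 1, 134193448 to 134201232, plus strand) encodes myosin-binding protein H, a shorter relative of myosin-binding protein C. It reached 50.2, 31.0 and 48.6 FPKM in the WT libraries and 2.60, 7.05 and 6.94 FPKM in the HSA-NRTN libraries, from 2279 to 3992 reads and 173 to 826 reads. The groups were far apart although both varied, with a coefficient of variation of 24.6% in WT and 45.9% in HSA-NRTN. The mean fell from 43.3 ± 10.6 to 5.53 ± 2.54 FPKM (SD, n = 3), 7.83-fold, and the log2 difference in limma was -2.82 with an SE of 0.31 (adjusted p = 0.000213). Of the 10755 tested genes, 0.0465% had a lower value. Exons of Adora1, on the opposite strand, cover 49.9% of those of Mybph, and the labels do not say whether reads were counted by strand; Adora1 was at 0.242 to 0.385 FPKM in all 6 libraries.

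Together, the FPKM of these 3 genes summed to 2109 ± 161 in WT and 1405 ± 86.9 in HSA-NRTN (SD, n = 3). Mybpc1 made up 19.1%, 18.0% and 20.3% of that sum in the WT libraries and 53.8%, 54.7% and 49.3% in the HSA-NRTN libraries. Mybpc2 made up 78.8% ± 1.65 in WT and 47.0% ± 2.79 in HSA-NRTN, and Mybph 2.08% ± 0.626 and 0.398% ± 0.191 (SD, n = 3). These shares and the ratios below do not depend on how the libraries were scaled.

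**Figure D2:**
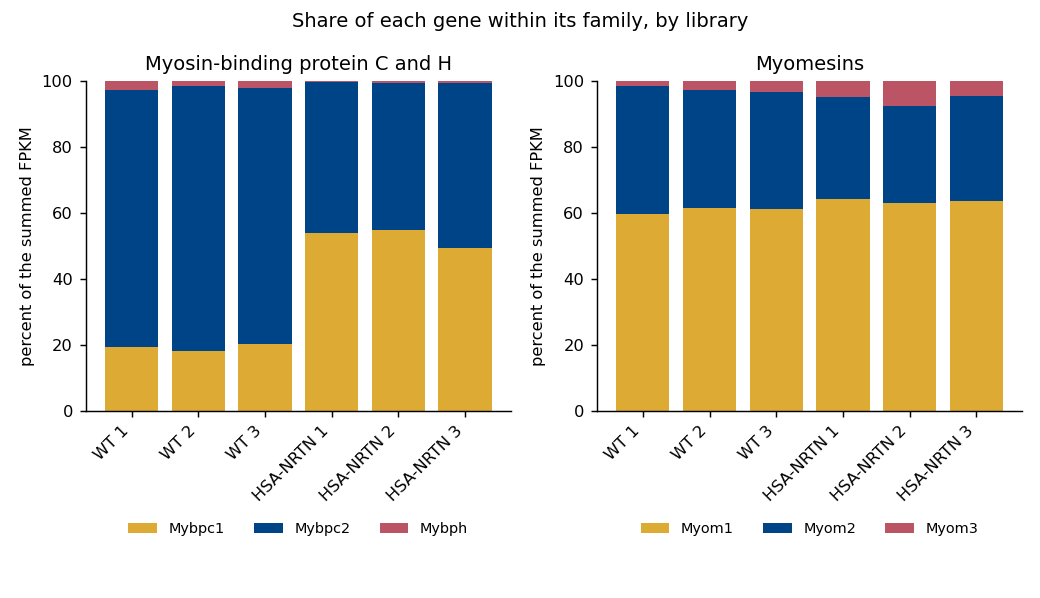
Percent of the summed FPKM of each family taken by each gene, 1 bar per library. In the myosin-binding protein family Mybpc1 held 18.0% to 20.3% of each WT bar and 49.3% to 54.7% of each HSA-NRTN bar; among the myomesins Myom3 held 1.38% to 3.43% of each WT bar and 4.599% to 7.55% of each HSA-NRTN bar, with shares that rest on the shorter length used for Myom1.

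The ratio of Mybpc1 to Mybpc2 within a library was 0.245, 0.223 and 0.262 in WT and 1.17, 1.22 and 0.984 in HSA-NRTN. On the log2 scale it was higher by 2.21 in HSA-NRTN, 4.62-fold, in 3 of 3 libraries. With 3 against 3 libraries an exact two-sided permutation test cannot go below p = 0.1, and this ratio reached that value (adjusted p = 0.133 over 8 ratios). The ratio of Mybph to Mybpc2 differed by -1.74 in log2 (exact permutation p = 0.1, adjusted p = 0.133), and each HSA-NRTN library lay below each WT library. Mybpc2 was also set against Myh4, the fast IIb myosin heavy chain. Its ratio to Myh4 was 0.194, 0.191 and 0.185 in WT and 0.275, 0.266 and 0.216 in HSA-NRTN, without overlap, which makes Mybpc2 higher relative to Myh4 by 0.40 in log2 (exact permutation p = 0.1, adjusted p = 0.133).

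The promoters of the 3 genes are shown because the genes moved in different directions. They are RefSeq windows of 300 bases on GRCm38.p6, spanning the annotated start, with each CANNTG, the E-box bound by MyoD and other basic helix-loop-helix factors, in capitals.
Mybpc1, chr10:88605103-88605402, minus strand: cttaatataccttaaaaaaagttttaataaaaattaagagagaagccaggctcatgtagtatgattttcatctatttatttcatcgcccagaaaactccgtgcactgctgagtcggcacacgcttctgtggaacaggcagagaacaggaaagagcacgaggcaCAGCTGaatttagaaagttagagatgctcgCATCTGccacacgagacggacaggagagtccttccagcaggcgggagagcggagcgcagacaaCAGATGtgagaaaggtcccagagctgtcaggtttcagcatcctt
Mybpc2, chr7:44524620-44524919, minus strand: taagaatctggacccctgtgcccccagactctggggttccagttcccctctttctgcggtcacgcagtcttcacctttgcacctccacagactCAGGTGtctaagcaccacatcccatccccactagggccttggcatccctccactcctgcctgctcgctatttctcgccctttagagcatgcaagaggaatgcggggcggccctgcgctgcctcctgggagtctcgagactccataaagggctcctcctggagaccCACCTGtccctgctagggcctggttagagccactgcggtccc
Mybph, chr1:134193198-134193497, plus strand: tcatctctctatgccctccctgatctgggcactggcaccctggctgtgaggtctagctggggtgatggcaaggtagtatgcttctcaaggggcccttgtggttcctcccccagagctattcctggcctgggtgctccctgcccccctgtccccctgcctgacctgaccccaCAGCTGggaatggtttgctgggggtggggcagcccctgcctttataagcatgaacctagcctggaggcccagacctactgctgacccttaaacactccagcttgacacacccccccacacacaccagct

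Mybpc1 held 3 E-boxes, Mybpc2 held 2 and Mybph 1; 72.3% of the 32851 windows in the RefSeq table held at least 1. All motifs were searched on both strands. The MCAT element CATTCC, bound by TEAD factors, occurred once each in Mybpc2 and Mybph, in both as its reverse complement, and not in the Mybpc1 window, and in 14.7% of all windows. In the Mybph window it directly follows the E-box. Of the 3 windows that of Mybph held TATAAA, only as its reverse complement, against 13.6% of all windows. Only these exact letters were searched, so TATA elements spelled otherwise, in the gene's own orientation too, were not counted. The MEF2 motif matched none of the 3, and matched the windows of Ttn and Myom3 once each, against 3.19% of all windows. No match of 1 motif overlapped a match of another in these windows. Of the 9 genes 8 had a window in the RefSeq table, and the matches are letters in a window, not sites of binding.

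Among the myomesins, Myom2 fell, Myom3 rose and Myom1 was not called. Their FPKM summed to 550.4 ± 43.4 in WT and 550.5 ± 13.8 in HSA-NRTN (SD, n = 3), a difference smaller than the spread between libraries. This near-equal sum holds for FPKM as deposited and depends on the scaling. With the size factors the log2 change was -0.23 for Myom1, -0.55 for Myom2 and 0.89 for Myom3. Myom2 (ENSMUSG00000031461; chromosome 8, 15057653 to 15133541, plus strand) encodes M-protein, the myomesin of fast fibres and heart. It reached 196, 203 and 206 FPKM in the WT libraries and 175, 161 and 173 FPKM in the HSA-NRTN libraries. The HSA-NRTN libraries all lay below the WT libraries by a small margin. The log2 difference in limma was -0.25 with an SE of 0.07 (adjusted p = 0.0143), and the call was lost without HSA-NRTN 2 (log2 change -0.21; limma, adjusted p = 0.0562). Scaled by size factors it was -0.55 (limma, adjusted p = 0.00137). The authors' deposited table gave Myom2 as -0.55 too (adjusted p = 9.89e-09).

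Myom3 (ENSMUSG00000037139; chromosome 4, 135759715 to 135815564, plus strand), the myomesin found in slow and intermediate fibres, reached 6.91, 15.7 and 19.9 FPKM in the WT libraries. The HSA-NRTN libraries gave 27.8, 41.0 and 24.9 FPKM. The groups did not overlap, but WT 1 stood well below the other WT libraries and HSA-NRTN 2 above the other HSA-NRTN libraries. On average Myom3 rose from 14.2 ± 6.64 to 31.2 ± 8.61 FPKM (SD, n = 3), 2.20-fold, and the log2 difference in limma was 1.17 with an SE of 0.34 (adjusted p = 0.0191). This call was lost without HSA-NRTN 2 (log2 change 0.96; limma, adjusted p = 0.0687), after size-factor scaling (0.89; adjusted p = 0.0569) and with no filter (1.17; adjusted p = 0.0673). Without WT 1 the change was 0.75 and the call was kept. The authors' deposited table gave 0.84 with an adjusted p of 0.128. WT 1 was also the library with the lowest sum of slow-fibre markers, 185 FPKM against 331 and 496 in WT 2 and WT 3; the part of this in the change of Myom3 was not tested.

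Myom1 (ENSMUSG00000024049; chromosome 17, 71002633 to 71126856, plus strand), the myomesin of all striated fibres, reached 298, 350.3 and 355 FPKM in the WT libraries and 364, 342 and 344 FPKM in the HSA-NRTN libraries. The groups overlapped. In limma the difference was 0.07 in log2 with an SE of 0.09 (adjusted p = 0.528), and -0.23 after size-factor scaling (adjusted p = 0.102). The authors' deposited table gave -0.23 with an adjusted p of 0.0572. Its length in the deposited values was 5672 bases, against 10459 in the union of its exons in GENCODE M21; the lengths of the other 8 genes were equal to that union. With the longer length its FPKM would be lower in all libraries alike, so its place in the order of levels, the myomesin sum and the size of the shares and ratios that use it are uncertain.

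Within a library, the ratio of Myom1 to Myom2 was 1.52, 1.73 and 1.72 in WT and 2.09, 2.13 and 1.99 in HSA-NRTN, higher by 0.32 in log2 without overlap (exact permutation p = 0.1, adjusted p = 0.133). That of Myom3 to Myom2 was 0.0353, 0.0774 and 0.0966 in the WT libraries against 0.159, 0.256 and 0.144 in the others, which differ by 1.49 in log2 (exact permutation p = 0.1, adjusted p = 0.133). Myom3 relative to Myom1 was higher by 1.17 in log2, with the same p. Myom3 took 1.38%, 2.76% and 3.43% of the myomesin sum in WT and 4.90%, 7.55% and 4.599% in HSA-NRTN. It remained the least abundant of the 3 in every library.

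**Figure D3:**
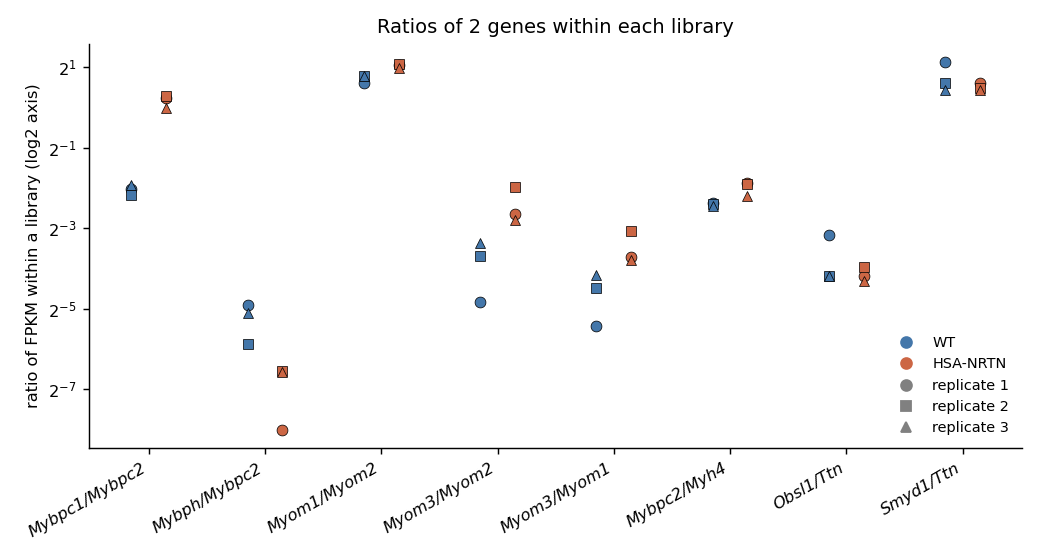
Ratio of the FPKM of 2 genes within each library (log2 y axis), with WT in blue, HSA-NRTN in orange and the replicate shown by the symbol. Mybpc1/Mybpc2 went from 0.223 to 0.262 in WT to 0.984 to 1.22 in HSA-NRTN, and Obsl1/Ttn and Smyd1/Ttn overlapped between the groups.

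Titin and the linker protein next to it showed no called change. Ttn (ENSMUSG00000051747; chromosome 2, 76703980 to 76982547, minus strand) reached 65.2, 91.2 and 99.7 FPKM in the WT libraries and 89.2, 99.9 and 101 FPKM in the HSA-NRTN libraries. WT 1 was the lowest of the 6 libraries and the others lay close together. In limma the difference was 0.20 in log2 with an SE of 0.15 (adjusted p = 0.281), and -0.10 after size-factor scaling (adjusted p = 0.610). Dropping WT 1 under that scaling, a setting chosen after seeing the data, gave -0.28 for Ttn (limma, adjusted p = 0.0250) and -0.31 for Myom1 (adjusted p = 0.0403), both called lower. Its exons add up to 116825 bases, and it took 0.761% to 1.18% of all counted reads, 208694 to 586911 reads per library. The value is per gene, and the splice forms that set titin's stiffness were not separated.

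Obsl1 (ENSMUSG00000026211; chromosome 1, 75479310 to 75506452, minus strand) encodes a cytoskeletal linker protein that joins titin and myomesin at the M-band. It reached 7.22, 5.002 and 5.49 FPKM in the WT libraries and 4.94, 6.45 and 5.13 FPKM in the HSA-NRTN libraries, the lowest or near the lowest level of the 9 genes in each library. The groups overlapped (log2 difference of -0.08 in limma, SE 0.13, adjusted p = 0.637). Scaled by size factors the groups did not overlap, and the change of -0.33 was not called (limma, adjusted p = 0.0535). The authors' deposited table called it lower (log2 change -0.40, adjusted p = 0.0143). Relative to Ttn it was at 0.111, 0.0548 and 0.0550 in WT and at 0.0554, 0.0645 and 0.0507 in HSA-NRTN (exact permutation p = 0.7, adjusted p = 0.7). WT 1 alone stood apart, and without it the difference turned from -0.29 to 0.04 in log2.

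Smyd1 (ENSMUSG00000055027; chromosome 6, 71213940 to 71322233, minus strand) encodes a lysine methyltransferase of striated muscle that is needed, in zebrafish, to build thick filaments. It had the narrowest spread in WT, with a coefficient of variation of 2.23%, and reached 142, 139 and 136 FPKM in the WT libraries and 136, 139.6 and 137 FPKM in the HSA-NRTN libraries. The groups overlapped and the difference in limma was -0.01 in log2 with an SE of 0.06 (adjusted p = 0.895). Scaled by size factors Smyd1 was called lower (-0.31 with an SE of 0.07; limma, adjusted p = 0.00995), as in the authors' deposited table (-0.31; adjusted p = 0.000668). Smyd1 relative to Ttn overlapped between the groups (exact permutation p = 0.5, adjusted p = 0.571).

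Set against the median of all tested genes, the changes differ less between the scalings. This follows largely from the arithmetic, as a size factor multiplies every gene of a library alike. Mybph lay at -3.002 on the log2 scale with FPKM and at -3.04 with the size factors, and Mybpc2 at -1.51 and -1.57. Myom2 lay at -0.43 and -0.49, Obsl1 at -0.26 and -0.28, Smyd1 at -0.19 and -0.25, and Myom1 at -0.11 and -0.17. Ttn lay at 0.02 and -0.04, Mybpc1 at 0.69 and 0.63, and Myom3 at 0.99 and 0.94.

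**Figure D4:**
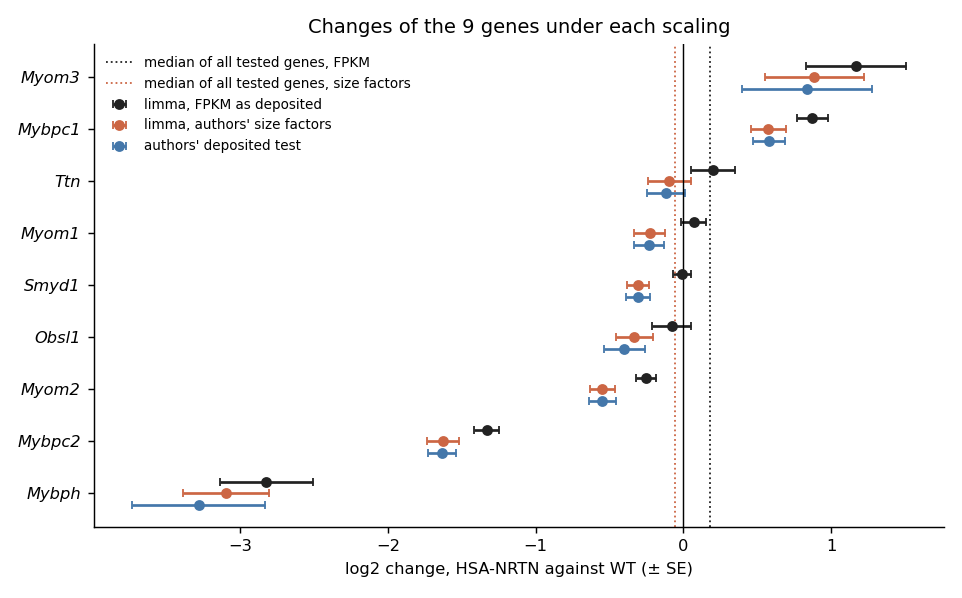
The log2 change of each of the 9 genes, HSA-NRTN against WT, with its SE, from limma on FPKM as deposited (black), from limma with the authors' size factors (orange) and from the authors' deposited test (blue). Dotted lines mark the median of all tested genes, 0.18 with FPKM and -0.06 with the size factors; Ttn and Myom1 change sign between the scalings.

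Partner genes of the thick filament and M-band, listed by role, changed in part. Of 36 listed genes 33 were tested, of which 9 rose and 12 fell; with the size factors 3 rose and 16 fell. Over all tested genes the shares were 41.6% higher and 11.7% lower with FPKM, and 20.8% and 30.1% with the size factors, which also stand behind the counts by role below. The tested partners had a median of -0.05 in log2, or -0.34 after size-factor scaling. Mybphl had no unique row, and Mybpc3, the cardiac isoform of myosin-binding protein C, was at no more than 0.0191 FPKM in any library.

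Of the myosin filament genes 10 were tested, of which 3 rose and 5 fell; after size-factor scaling 1 rose and 5 fell. Myh4 fell from 8761 ± 859 to 2635 ± 336 FPKM (SD, n = 3), and Myl1, an essential light chain of fast fibres, from 4447 ± 290.3 to 2220 ± 68.9. Myh7, the slow heavy chain, fell from 23.8 ± 12.7 to 10.0 ± 4.64 FPKM, with groups that overlapped on that scale. After size-factor scaling the groups of Myh7 did not overlap, with a log2 change of -1.43 (limma, adjusted p = 0.0223). Myh1, the IIx heavy chain, rose from 621 ± 67.7 to 1829 ± 260 FPKM.

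Of 7 tested partners of the M-band and the obscurin family 3 rose and 2 fell. With the size factors none rose and 3 fell. Ckm, muscle creatine kinase, which binds at the M-band, fell from 6367 ± 853 to 3975 ± 190 FPKM (SD, n = 3), and Ank1, an ankyrin that links membranes to the cytoskeleton, from 47.2 ± 5.62 to 28.3 ± 0.757. Fbxw8 (7.25 ± 0.398 to 10.1 ± 0.575 FPKM) and Cul7 (1.14 ± 0.103 to 1.82 ± 0.405) are parts of a ubiquitin ligase; both rose with FPKM and were not called after size-factor scaling (limma, adjusted p = 0.0642 and 0.109).

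Of 12 titin partners 2 rose and 3 fell; after size-factor scaling 1 rose and 6 fell. Fhl2, a LIM protein that binds titin, rose from 1.55 ± 0.932 to 5.53 ± 0.431 FPKM and Fhl1 from 353 ± 128 to 660 ± 113 (SD, n = 3); the call of Fhl1 was lost after size-factor scaling (limma, adjusted p = 0.0765). Sqstm1, an autophagy receptor tied to the titin kinase, fell from 164 ± 5.98 to 102 ± 2.03 FPKM, and Trim54, a muscle RING finger protein, from 241 ± 22.8 to 157 ± 4.61.

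Of the 4 genes for myosin folding and Smyd1 partners 1 rose and 2 fell under both scalings. Smyd2, a methyltransferase that in muscle binds titin together with Hsp90, fell from 73.2 ± 5.57 to 16.4 ± 1.92 FPKM (SD, n = 3), and the log2 difference in limma was -2.09 with an SE of 0.10 (adjusted p = 2.91e-06). Unc45b, the chaperone of muscle myosin, fell from 81.7 ± 8.95 to 67.7 ± 1.86 FPKM. Hsp90aa1, its partner chaperone, rose from 6.08 ± 1.30 to 12.03 ± 3.69, and Naca was at 64.9 ± 6.22 and 71.8 ± 7.86 FPKM and was not called.

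**Figure D5:**
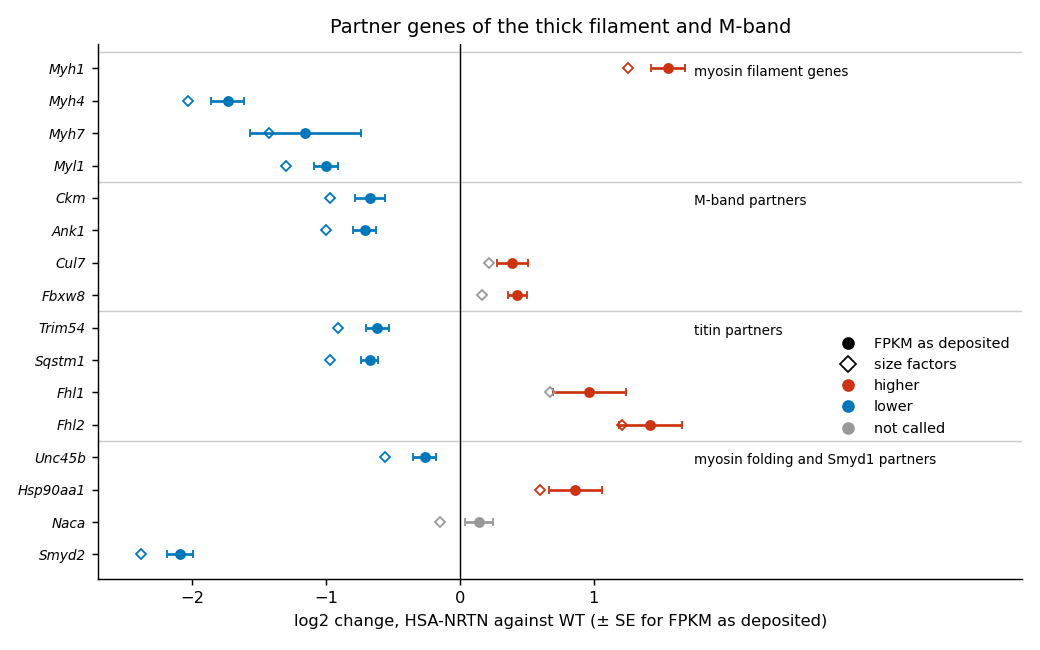
The log2 change, HSA-NRTN against WT, of the 4 partner genes with the largest change in each role: filled circles with SE for FPKM as deposited, open diamonds for the size factors, red for called higher, blue for called lower and grey for not called. Smyd2 had the lowest value (-2.09) and Myh1 the highest (1.55).

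The genes with the most similar profile over the 6 libraries were found for the 3 genes with the largest changes, by the root mean square distance of log2(FPKM + 1) after centring each gene on its own mean. For Mybpc2 these were Xpr1 (distance 0.0451), Mllt11 (0.0667) and Synm (0.0686), and for Myom3 they were Fhl1 (0.163), Hp (0.197) and Myoz2 (0.225). For Mybph the nearest, Smox (0.392), Pla2g7 (0.473) and Actn3 (0.520), were farther away. Xpr1 fell from 9.80 ± 0.996 to 3.18 ± 0.189 FPKM and Synm, the intermediate filament protein synemin, from 179 ± 14.97 to 75.1 ± 5.08 (SD, n = 3). Hp had its highest value, 47.8 FPKM, in HSA-NRTN 2 and its lowest, 7.36 FPKM, in WT 1, as Myom3 did. The distance is dominated by the difference between the groups and is a description of these 6 libraries.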

How the data were processed

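Per the labels' protocols, total RNA of frozen gastrocnemius was extracted with TRI reagent and 1 µg went into Illumina TruSeq libraries. Cufflinks, Cuffdiff, DESeq2, HISAT2 and HTSeq are listed with GRCm38, per the submitters' processing notes, with no version or role given in the sources used here. The authors deposited 1 table with FPKM per library, a mean signal per gene (reads divided by size factors), and their own log2 fold changes with errors, test score and p-values. The header names no unit, and FPKM was inferred from the values. Combined with that mean, the 127467 FPKM values above 0 came out as whole reads in 100% of cases, to within 0.02 read, which also gave library totals, gene lengths and the authors' size factors. The size factors place HSA-NRTN lower than WT by 0.30 in log2 (-0.30).

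Changes came from limma 3.58.1 in R 4.3.3 on log2(FPKM + 1), with the prior variance following mean intensity, a scale that understates changes of low genes. The test was tested on simulated data. These were not built to hold a difference in library composition, so they cannot decide between the scalings. Alternatives were size factors, quantile normalization, a pseudocount of 0.1, other filters, a replicate block, each library left out, and limma-voom on the recovered reads, which called 4622 genes higher and 1282 lower. The 9 genes and the lists of partners and markers were chosen with earlier results of these data known. Genes named besides the 9 are, per role, the 4 partners with the largest absolute change, and the 3 nearest profiles of the 3 most changed genes; Mybpc3, Mybphl and Adora1 were added after their values were seen, and 1 listed partner is not reported here. No transcript of the 9 genes shared a 50-base word with another of them; at most 0.875% of a gene's words, for Obsl1, occurred in another gene on the same strand. One read in a gene of 1 kilobase was worth 0.0199 to 0.0365 FPKM.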

Additional observations from a re-analysis of the deposited data

How the results depend on the processing

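Mybph, Mybpc2 and Mybpc1 kept their direction and call under every alternative run; Myom2 kept its direction, and its call except without HSA-NRTN 2. The calls that Myom3 lost with FPKM are given above. As size-factor values, 2226 genes were higher and 3226 lower, against 4476 and 1255 as FPKM, with 1 member and 3 partners higher; after quantile normalization 2377 were higher and 2889 lower. No filter left 1 member higher; a mean of at least 5 FPKM left 2023 genes higher, from fewer tested. Without 1 library, 3451 to 4545 genes were higher and 1009 to 1189 lower, 1 to 2 members higher and 2 to 3 lower, and 7 to 10 partners higher and 9 to 13 lower. Signs changed for Myom1 (-0.23 by size factors, -0.16 by quantiles, -0.012 to 0.11 without 1 library) and Ttn (-0.10 by size factors, and 0.019 to 0.32 without 1 library). They also changed without 1 library for Obsl1 (-0.18 to 0.053), Smyd1 (-0.028 to 0.0043) and the Obsl1/Ttn ratio (-0.46 to 0.042). The size factors alone place HSA-NRTN lower by 0.30 in log2, more than the FPKM change of Myom1 (0.07) or Ttn (0.20). The cause of the other sign changes was not tested. After quantile normalization Smyd1 was called lower (-0.26, limma, adjusted p = 0.00561), as with the size factors.

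Chosen after seeing the data, size factors without 1 library gave 1651 to 2175 genes higher and 2510 to 3104 lower, 1 to 2 members higher and 4 to 6 lower, and 2 to 5 partners higher and 14 to 17 lower. Myom1 was then at -0.31 to -0.18, Ttn at -0.28 to 0.014, Obsl1 at -0.42 to -0.20, Smyd1 at -0.34 to -0.29 and Myom3 at 0.47 to 1.16. Smyd1 was called lower in each of these runs (limma, adjusted p = 0.0113 to 0.0472). For Myom3 the adjusted p in limma ranged from 0.0223 to 0.180. Deviations of same-numbered libraries had correlations over genes of 0.08, -0.17 and 0.19. WT 1 correlated best with HSA-NRTN 2 (0.10), and WT 3 with HSA-NRTN 3 (0.19). Such correlations cannot show whether libraries were paired, and the labels do not say. The replicate block gave 4309 genes higher and 1212 lower, 2 members higher and 3 lower, and 10 and 11 partners. Size factors with the replicate block, also chosen after seeing the data, gave 2175 genes higher and 3183 lower, 1 member and 4 partners higher, Myom1 at -0.23 and Ttn at -0.10. With 3 libraries a group, no ratio can pass 0.05 in the exact test.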

Other observations

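Smyd1 and Smyd2 belong to a family of methyltransferases with a SET and a MYND domain, and the other genes of the family were looked up after the fall of Smyd2 was seen. Smyd4 averaged 1.85 ± 0.163 FPKM over the WT libraries and 1.72 ± 0.138 over the HSA-NRTN libraries, and Smyd5 1.753 ± 0.193 and 1.72 ± 0.197 (SD, n = 3); neither was called with FPKM (limma, adjusted p = 0.514 and 0.886), while with the size factors Smyd4 was called lower (-0.26; adjusted p = 0.0373) and Smyd5 was not (adjusted p = 0.0602). Smyd3, at 0.858 ± 0.0982 and 0.845 ± 0.0551 FPKM, was below the level set for testing. Of the 4 tested genes of the family 1 was called with FPKM, Smyd2, and 3 with the size factors, Smyd1, Smyd2 and Smyd4. Over all tested genes 53.3% were called in either direction with FPKM and 50.8% with the size factors.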
